A study of Homo sapiens with 6 samples.

Results

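NF-κB factors and their inflammatory targets were examined in H660 cells with and without induction of a MUC1 hairpin. The 10 genes were taken by exact symbol from the 28008 genes of the count table, and all 10 were found there. They comprise the NF-κB subunit genes NFKB1, NFKB2, RELA and RELB, the inhibitor genes NFKBIA and TNFAIP3, the survival gene BIRC3, and the chemokine genes CXCL1, CXCL2 and CXCL8. H660 (NCI-H660) is an established human neuroendocrine prostate cancer (NEPC) line. A short hairpin RNA (shRNA) that targets MUC1 and is switched on by tetracyclines had been introduced in the pLKO-tet-puro vector, with puromycin selection. Cells in both groups carried the hairpin. DOX-negative cells received 0.1% DMSO as vehicle (n = 3) and DOX-positive cells received doxycycline (DOX) at 500 ng/ml for 7 days (n = 3), with the dose from the series record and the time from the study. The labels give the DOX state in the sample titles alone. No group received DOX without the MUC1 hairpin, and none carried a control hairpin or another MUC1 hairpin. Effects of DOX itself, of hairpin induction, of other targets of this hairpin and of the silencing cannot be told apart here. The medium is given differently in the labels and in the study's methods, and the latter list hydrocortisone, a glucocorticoid, among the supplements of this line.

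NF-κB is a family of dimeric transcription factors that inhibitor proteins of the IκB family hold in the cytoplasm of resting cells. In the canonical arm, receptors for TNF, IL-1 and microbial products activate the IKK kinase complex, IκBα is degraded, and dimers of p65 (RELA) and p50 (from NFKB1) enter the nucleus and bind κB sites. In the non-canonical arm, receptors such as the lymphotoxin β receptor lead to processing of p100 (NFKB2) to p52, which pairs with RELB. Several target genes encode inhibitors of the pathway, among them NFKBIA and TNFAIP3. Genes for the factors themselves are targets too, so transcript levels show neither the location nor the activity of the proteins.

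The stretches below are shown because they hold the κB-like motifs of these genes, the DNA elements through which the family is known to act. Promoter windows from RefSeq (GRCh38.p14), each covering the 250 bases before a transcription start, were at hand for 9 of the 10 genes, RELB having no entry, and gave 13 windows in all. A 10-base κB consensus, searched on both strands, matched in 8 of these 13 windows, from 7 genes. The same consensus matched in 9.96% of 35116 windows of all genes. The 7 genes with a match were NFKB1, NFKB2, NFKBIA, TNFAIP3, BIRC3, CXCL1 and CXCL2. In CXCL8 the consensus had no match, and the shorter word GGAATTTCC, present in 0.413% of all windows, was found together with TGANTCA, the AP-1 motif, present in 6.57%. The windows of RELA held no match. Each line runs 5′ to 3′ on the gene's strand, with κB matches in capitals and, in CXCL8, the AP-1 match in capitals as well.
NFKB1, chr4:102501300-102501329 (+): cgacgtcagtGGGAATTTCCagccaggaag
NFKB2, chr10:102394461-102394490 (+): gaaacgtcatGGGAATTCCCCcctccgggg
NFKBIA, chr14:35404811-35404840 (-): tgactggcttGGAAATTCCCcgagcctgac
TNFAIP3, chr6:137867184-137867213 (+): gtgactttGGAAAGTCCCgtGGAAATCCCC
BIRC3, chr11:102317275-102317304 (+): tttgggtcatGGAAATCCCCgagtgggttt
CXCL1, chr4:73869304-73869333 (+): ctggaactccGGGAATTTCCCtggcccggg
CXCL2, chr4:74099254-74099283 (-): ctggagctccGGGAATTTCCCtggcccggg
CXCL8, chr4:73740422-73740496 (+): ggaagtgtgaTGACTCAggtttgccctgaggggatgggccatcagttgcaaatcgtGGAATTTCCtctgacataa
The 10-base match printed in capitals for NFKB1 also lies within the matches of CXCL1 and CXCL2. The match of NFKBIA is the same word on the opposite strand. This word was present on either strand in 0.142% of all windows. CXCL1 and CXCL2 were 70.4% identical over the 250 bases before their starts and 88.7% over the nearest 150 bases. The printed stretches show the same κB match with nearly the same flanks. A match describes these letters and does not show that a factor was bound.

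Libraries held 47620696 to 74061121 counts in total, and the biological coefficient of variation was 9.58%. MUC1, the gene targeted by the hairpin (chromosome 1, 155185824-155192915, minus strand), fell in every DOX-positive library, from 88.2, 90.2 and 79.6 to 36.7, 37.2 and 29.9 CPM. CPM here are read counts divided by the TMM-scaled library size. Its log2 fold change was -1.32 (SE 0.096), with an adjusted p of 0.00017 by edgeR's quasi-likelihood test. AL713999.1 overlaps MUC1 on the same strand. The line's identity was checked with markers: CHGA and SYP, which encode the neuroendocrine vesicle proteins chromogranin A and synaptophysin, had means of 28 and 19.4 TPM, and KLK3, the luminal prostate gene for PSA, had 0 counts. Of the neuroendocrine markers, NCAM1 and INSM1 fell in edgeR. DDC had a log2 fold change of -0.93 with groups that did not overlap (adjusted p = 0.15, and 0.039 in DESeq2), and those of CHGA, SYP and SCG2 were below 0 as well, with overlapping groups. The values of CHGB, SCG3 and ENO2 were above 0, and CHGB was higher without overlap (0.29, adjusted p = 0.17). Of 15 leukocyte markers 2 passed the count filter, PTPRC had at most 1 count in any library, 5 were at 0 in all libraries, and their summed level was 2.69 to 3.09 CPM without and 3.59 to 4.02 CPM with DOX. CD68 was the one leukocyte marker called higher. Of 11 fibroblast and endothelial markers 6 were tested and 4 rose (COL1A1, LUM, VWF and CDH5). The other tested markers were lower in fitted value: COL1A2, the most abundant of the list, was at 18.1 ± 3.48 and 11.1 ± 3.77 CPM without overlap (-0.71, adjusted p = 0.20), and KDR had a log2 fold change of -0.74 with overlap (adjusted p = 0.44). In this list PECAM1 had at most 6 counts, COL3A1 had 0, and the summed level was 30.6 to 34.9 CPM without and 31.4 to 36.6 CPM with DOX. Whether these markers have a part in the results below was not tested.

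Of the 10 genes, 9 passed the count filter and 4 of these 9 (44.4%) were higher with DOX at an adjusted p under 0.05, the threshold for a call: NFKB2, NFKBIA, CXCL2 and CXCL8. Across all 17026 genes tested, 4.87% were called, 2.91% higher and 1.96% lower. The 10 genes were chosen with earlier results of these data known, so these shares describe the genes and do not test the pathway. All 9 fitted changes were above 0, as were 50.1% of those of all genes tested. Normalized CPM did not overlap between the groups for 8 of the 9, all higher with DOX, against 14.8% of all genes tested that were higher without overlap and 28.1% without overlap in either direction. The median log2 fold change was 0.48 for the 9 genes and 0.00034 for all genes tested. The count of calls depended on the test. In DESeq2 6 of the 9 were called, CXCL2 not among them (adjusted p = 0.065). Without a count filter, edgeR called 7. Limma on log2(TPM + 1) of all genes called 0, and 6 had an unadjusted p under 0.05. The TPM in that fit were not scaled between libraries. Over all genes the same analyses called 1355, 1125 and 11, against 829 in the main fit. In bulk RNA, a change in the share of cells that express a gene and a change in RNA per cell cannot be told apart.

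**Figure D1:**
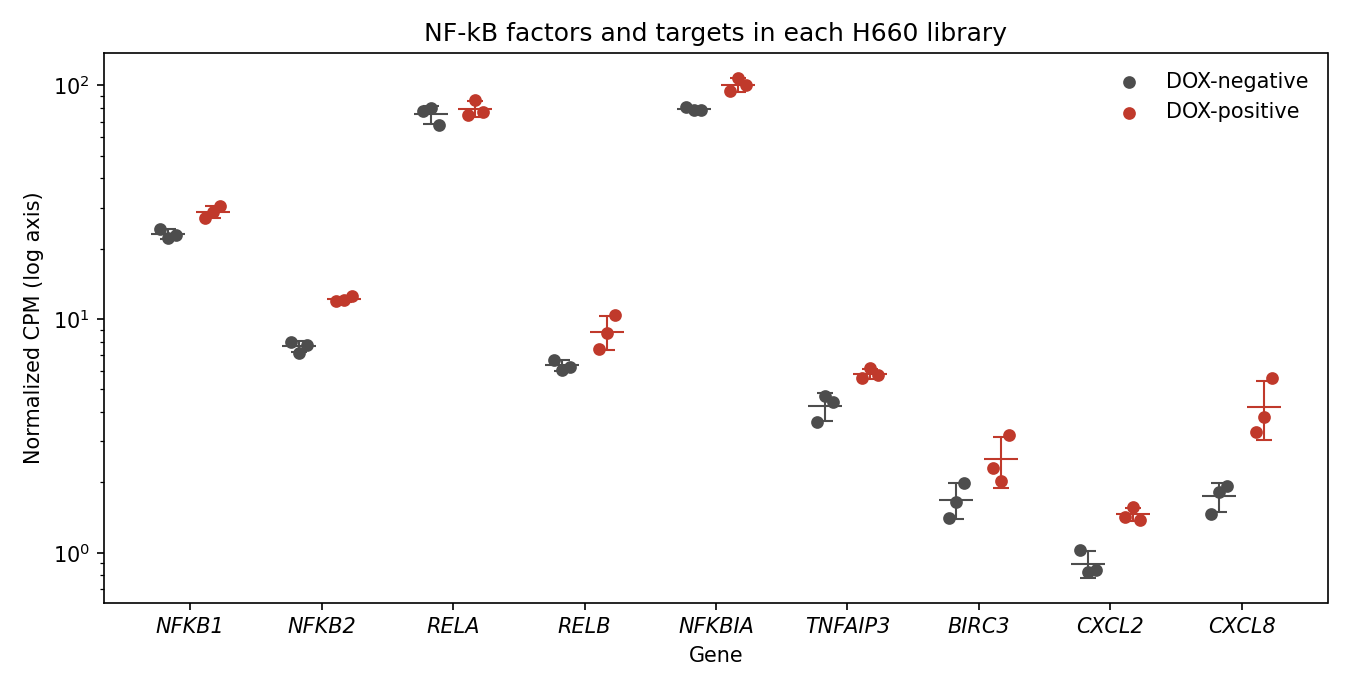
Normalized CPM (log axis) of each tested gene in each library, with the mean and SD of the 3 libraries of each group as a bar. DOX-positive libraries lie above DOX-negative ones for 8 of 9 genes, and RELA is the gene whose groups overlap.

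NFKB2 was the subunit gene called higher in edgeR. It encodes p100, the precursor of p52, and lies on chromosome 10 (102394110-102402529, plus strand). Its level was 8.0, 7.16 and 7.77 CPM without DOX and 11.9, 12.1 and 12.5 CPM with DOX. The libraries within each group lay close together, at 7.64 ± 0.43 and 12.2 ± 0.31 CPM (SD, n = 3), and the groups did not overlap. NFKB2 rose by 0.67 on the log2 scale (SE 0.094, 95% confidence interval 0.47 to 0.88, adjusted p = 0.0046). NFKB2 was called without each of the 6 libraries in turn, with log2 fold changes of 0.63 to 0.71.

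RELB, the partner of p52 (chromosome 19, 45001464-45038192, plus strand), was at 6.71, 6.06 and 6.24 CPM without DOX and at 7.41, 8.71 and 10.4 CPM with DOX. The groups did not overlap, but the DOX-positive libraries spread more widely than the controls. Its log2 fold change of 0.48 (SE 0.13, interval 0.20 to 0.76) had an adjusted p of 0.055. The value was 0.34 without DOX-positive replicate 3 (adjusted p = 0.16) and 0.59 without DOX-positive replicate 1, where RELB was called (adjusted p = 0.021).

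NFKB1, which encodes p105 and p50 (chromosome 4, 102501359-102617302, plus strand), was at 24.3, 22.1 and 22.9 CPM without DOX and at 27.0, 28.7 and 30.5 CPM with DOX. The groups did not overlap. The log2 fold change of 0.31 (SE 0.085, interval 0.13 to 0.50) had an adjusted p of 0.056. With 1 library left out, the adjusted p was 0.048 without DOX-positive replicate 2 and 0.054 to 0.24 in the other 5 cases.

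RELA, which encodes p65, the activating subunit of the canonical dimer (chromosome 11, 65653601-65663857, minus strand), was at 77.3, 80.2 and 67.8 CPM without DOX and at 74.8, 86.6 and 77.1 CPM with DOX. These values overlapped, and the log2 fold change was 0.081 (SE 0.087, interval -0.11 to 0.27, adjusted p = 0.65). RELA was called in none of the 17 alternative analyses. A lincRNA gene, AP001362.2, overlaps RELA on the opposite strand, and the strand setting of the counting is not given in the sources used here, so their reads cannot be told apart with certainty. REL, the subunit c-Rel, was outside the 10 genes and had a log2 fold change of 0.26 with overlapping groups (adjusted p = 0.22).

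Inhibitors of the pathway were next. NFKBIA encodes IκBα, which retains the canonical dimer in the cytoplasm and is itself a target gene (chromosome 14, 35401513-35404749, minus strand). It was at 80.8, 78.6 and 78.5 CPM without DOX and at 94.1, 107.5 and 100.5 CPM with DOX. The controls differed little, at 79.3 ± 1.30 CPM, and each DOX-positive library was higher than all of them. NFKBIA rose by 0.34 on the log2 scale (SE 0.074, interval 0.18 to 0.51, adjusted p = 0.024). The call was lost when any control library was left out (adjusted p = 0.057, 0.13 and 0.13 for replicates 1, 2 and 3) or DOX-positive replicate 3 was (0.052), while the log2 fold change remained between 0.30 and 0.39.

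TNFAIP3 encodes A20, an enzyme that edits ubiquitin chains and damps signalling to IKK (chromosome 6, 137866349-137883312, plus strand). It was at 3.61, 4.70 and 4.41 CPM without DOX and at 5.58, 6.16 and 5.74 CPM with DOX. The groups did not overlap, and the log2 fold change of 0.46 (SE 0.13, interval 0.18 to 0.73) had an adjusted p of 0.059. An antisense gene, AL357060.1, overlaps it on the opposite strand.

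BIRC3 encodes cIAP2, a ubiquitin ligase that acts at TNF receptors and restrains cell death (chromosome 11, 102317484-102339403, plus strand). Its level was 1.41, 1.65 and 1.99 CPM without DOX and 2.30, 2.02 and 3.20 CPM with DOX. The groups were set apart by a narrow margin, between DOX-negative replicate 3 and DOX-positive replicate 2. The log2 fold change was 0.59 (SE 0.20, interval 0.16 to 1.02, adjusted p = 0.11), and 0.37 without DOX-positive replicate 3.

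The chemokine genes form a cluster on chromosome 4. CXCL8 encodes interleukin-8, which attracts neutrophils (73740569-73743716, plus strand), and it showed the largest fitted change of the 9 genes. Its counts were 94, 113 and 92 without DOX and 249, 209 and 411 with DOX, or 1.47, 1.83 and 1.93 CPM against 3.29, 3.80 and 5.57 CPM. The groups were well apart, and DOX-positive replicate 3 stood above the other treated libraries. CXCL8 rose 2.44-fold (interval 1.80 to 3.30), or by 1.28 on the log2 scale (SE 0.20, adjusted p = 0.0072). Without DOX-positive replicate 3 the log2 fold change was 1.03 and the gene was still called (adjusted p = 0.0085). Without DOX-negative replicate 3 it was 1.35 with an adjusted p of 0.057.

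CXCL2, a chemokine of the same CXC class (74097040-74099195, minus strand), was scarce, at 66, 51 and 40 counts without DOX and 108, 86 and 102 with DOX. This corresponded to 1.03, 0.82 and 0.84 CPM against 1.43, 1.56 and 1.38 CPM, with no overlap. CXCL2 rose by 0.69 on the log2 scale (SE 0.18, interval 0.30 to 1.08, adjusted p = 0.049). It was called in 3 of the 15 alternative analyses that could fit it. DESeq2 and limma-voom did not call it (adjusted p = 0.065 and 0.061). The call lay at the threshold and was lost without any one of the 6 libraries: the adjusted p was 0.061, 0.20 and 0.18 without DOX-negative replicates 1, 2 and 3, and 0.076, 0.089 and 0.089 without DOX-positive replicates 1, 2 and 3.

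CXCL1, the closest relative of CXCL2 (73869393-73871308, plus strand), had 0 counts in all 6 libraries and could not be tested. A count of 0 allows up to 3 counts, or 0.0405 to 0.0630 CPM depending on the library. Of the 1048 words of 50 bases in its transcript, 5.73% also occurred in that of CXCL2 and 0% in that of CXCL3. Its κB match is the one printed for CXCL2, which was detected in every library. CXCL3, a related chemokine gene that was not among the 10, had 26 to 58 counts per library and differed by 0.42 on the log2 scale (SE 0.24, adjusted p = 0.35).

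**Figure D2:**
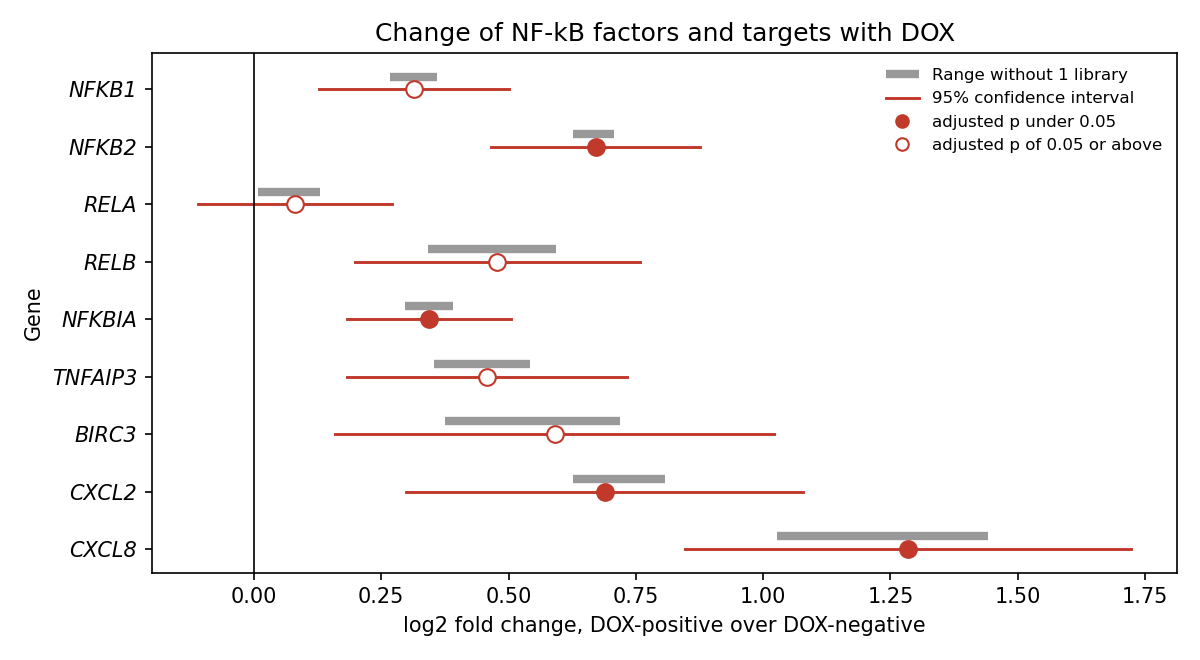
Log2 fold change (x axis, DOX-positive over DOX-negative) of each tested gene with its 95% confidence interval, and in grey the range when 1 library at a time was left out. Filled points mark adjusted p under 0.05; all 9 points lie above 0, from 0.081 for RELA to 1.28 for CXCL8.

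Compared per length, in deposited TPM averaged over the 6 libraries, NFKBIA was the most abundant at 34.4, followed by RELA at 17.1, NFKB1 at 3.27, RELB at 1.91, NFKB2 at 1.42, CXCL8 at 0.90, CXCL2 at 0.62, TNFAIP3 at 0.58 and BIRC3 at 0.16, with CXCL1 listed at 0. The library ranges were 25.4 to 44.5 TPM for NFKBIA and 12.6 to 20.3 TPM for RELA, and did not overlap. Neither did RELA and NFKB1, nor TNFAIP3 and BIRC3. From NFKB1 down to TNFAIP3, each gene's range overlapped that of the next. Within every library, however, NFKB1 was above RELB, RELB above NFKB2 and NFKB2 above CXCL8. The order among CXCL8, CXCL2 and TNFAIP3 differed between libraries and was not resolved. NFKBIA and RELA, the genes for an inhibitor and for the subunit it binds, were far above the chemokine genes in both groups. With DOX, mean TPM was 38.8 for NFKBIA and 17.6 for RELA against 1.29 for CXCL8. In TPM, 5 of the 9 genes did not overlap between groups (NFKB2, RELB, NFKBIA, CXCL2 and CXCL8), all higher, against 5.16% of tested genes that were higher without overlap. TPM were used as deposited, without scaling between libraries. For NFKBIA they were 30.1 ± 4.08 without and 38.8 ± 5.41 with DOX, a wider relative spread than in CPM (79.3 ± 1.30 and 100.7 ± 6.69). Whether this spread accounts for the fewer calls in TPM was not tested. RN7SK, a small nuclear RNA, held 21.2% to 27.1% of TPM and 5.83% to 7.79% of counts.

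No control library held the highest value of any tested gene. DOX-positive replicate 3 was highest for 5 genes and DOX-positive replicate 2 for 4. The mean deviation from each gene's overall mean, on a log2 scale over the 9 genes, was -0.25, -0.24 and -0.22 in the DOX-negative libraries (replicates 1, 2 and 3). It was 0.13, 0.24 and 0.34 in the DOX-positive libraries, in the same order. The controls were alike in this mean, and the treated libraries differed more.

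**Figure D3:**
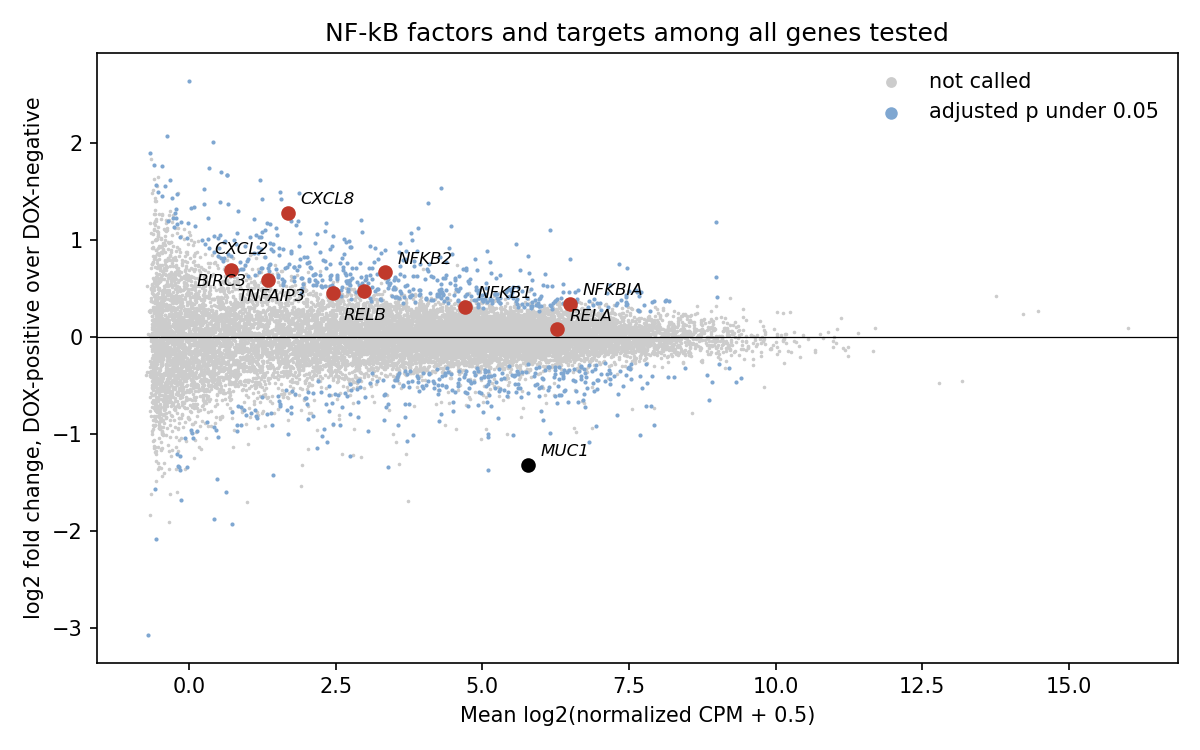
Log2 fold change (y axis) against mean log2 of normalized CPM plus 0.5 (x axis) for the 17026 genes tested, with called genes in blue, the NF-κB factors and targets in red and MUC1 in black. The 9 genes lie at or above 0 over a wide range of abundance, and MUC1 lies at -1.32.

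The wider pathway was described with 8 lists arranged by role, which held 142 different genes including the 10 above. Of these, 108 were tested and 22 (20.4%) were called in edgeR, 18 higher and 4 lower, with a median log2 fold change of 0.12. Without the 10 genes there were 132, of which 99 were tested, 14 rose and 4 fell (18.2% called, median 0.083). Among all genes tested, 4.87% were called, 2.91% higher and 1.96% lower. The counts of each list below stand against these same shares. All lists were chosen with earlier results of these data known, so the shares are a description and not a test of the pathway. Leaving out DOX-negative replicate 2 gave 10 called pathway genes, DOX-negative replicate 3 gave 3 and DOX-positive replicate 3 gave 12. For calls among all genes the corresponding numbers were 127, 58 and 375, against 829 with all 6 libraries.

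In the IκB family, 4 of 6 genes rose and none fell (median 0.35). Besides NFKBIA these were BCL3, NFKBIB and NFKBIZ. BCL3, a nuclear IκB protein that binds p50 and p52, went from 3.90 ± 0.42 to 5.95 ± 0.91 CPM (log2 fold change 0.60, SE 0.14, adjusted p = 0.031). NFKBIB, the gene for IκBβ, went from 10.5 ± 1.20 to 14 ± 0.91 CPM (0.41, adjusted p = 0.047), and SIRT2 overlaps it on the opposite strand. NFKBIZ, a nuclear co-regulator of secondary response genes, went from 18.4 ± 1.64 to 23.6 ± 0.42 CPM (0.36, adjusted p = 0.042). These 3 calls were lost when DOX-negative replicate 2 or 3 was left out. Without DOX-negative replicate 2 the adjusted p was 0.14 for BCL3, 0.13 for NFKBIB and 0.21 for NFKBIZ. Without DOX-negative replicate 3 it was 0.16, 0.21 and 0.082 in the same order. The log2 fold changes in these fits were 0.56 and 0.55 for BCL3, 0.45 and 0.32 for NFKBIB, and 0.32 and 0.43 for NFKBIZ. With each of the 6 libraries left out in turn, BCL3 was called in 2 cases, NFKBIB in 1 and NFKBIZ in 1. NFKBIB was not called in limma-voom (adjusted p = 0.053). Among the 5 subunit genes NFKB2 was the one called in edgeR and in limma-voom, and DESeq2 called NFKB1 (adjusted p = 0.021) and RELB (0.019) as well.

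Of 30 genes for IKK components, adaptors and ubiquitin enzymes, 0 rose and 1 fell (median 0.041), with 5 higher and 1 lower at an unadjusted p under 0.05, while DESeq2 called 2 higher and 1 lower and limma-voom 0 and 1. MAP3K7 encodes TAK1, the kinase upstream of IKK, and went from 69.0 ± 1.72 to 55.9 ± 4.01 CPM (log2 fold change -0.30, SE 0.077, adjusted p = 0.045). Its adjusted p was 0.086, 0.19 and 0.17 without DOX-negative replicates 1, 2 and 3, and 0.088 without DOX-positive replicate 3. IRAK1, a kinase of the IL-1 receptor arm, was at 123.2 ± 11.8 and 155.7 ± 14.1 CPM (0.34, adjusted p = 0.055), and was called without DOX-negative replicate 1 or DOX-positive replicate 1 (adjusted p = 0.039 and 0.030). SHARPIN, a subunit of the linear ubiquitin ligase complex, had a log2 fold change of 0.13 (adjusted p = 0.47). Of 15 feedback inhibitor genes, NFKBIA was the one called in edgeR and in limma-voom (median 0.11), and DESeq2 called 2, with TNFAIP3 at an adjusted p of 0.030. TAX1BP1, the A20 adaptor, had a log2 fold change of -0.050 (adjusted p = 0.87).

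Receptors were tested for 14 of 22 genes, of which 3 rose and 1 fell (median 0.16). TNFRSF12A, the receptor for TWEAK, was at 3.99, 4.09 and 3.97 CPM without DOX and at 6.71, 8.27 and 9.37 CPM with DOX. The controls were nearly equal and every treated library was well above them. Its log2 fold change was 1.01 (SE 0.13, adjusted p = 0.0029), and CLDN6 overlaps it on the opposite strand. TNFRSF1B, TNF receptor 2, went from 20.4 ± 1.74 to 32.9 ± 5.11 CPM (0.69, adjusted p = 0.010, and 0.084 without DOX-negative replicate 3). IL1RAP, the shared co-receptor of the IL-1 family, went from 6.89 ± 0.51 to 9.82 ± 0.71 CPM (0.52, adjusted p = 0.020), and its adjusted p was 0.061, 0.11 and 0.078 without DOX-negative replicates 1, 2 and 3. NOD1, a cytosolic sensor of bacterial peptidoglycan, fell from 39.2 ± 3.55 to 27.7 ± 3.22 CPM (-0.50, adjusted p = 0.021), and its adjusted p was 0.10 or 0.13 if DOX-negative replicate 2 or 3 was left out, and 0.052 if DOX-positive replicate 3 was. TNFRSF1A, TNF receptor 1, and LTBR, the lymphotoxin β receptor, had log2 fold changes of 0.17 and 0.13 (adjusted p = 0.26 and 0.45).

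Ligands that activate the pathway differed in level. Of 16 ligand genes 8 could be tested and 0 were called in edgeR, DESeq2 or limma-voom, with 0 at an unadjusted p under 0.05 in edgeR (median log2 fold change 0.017). TNF had 0 to 7 counts per library, IL1A 0 to 1 and IL1B 0 to 2. The most abundant ligand genes were TNFSF13, which encodes APRIL, and TNFSF12, which encodes TWEAK, with means of 2.06 and 1.42 TPM. Their log2 fold changes were 0.23 and 0.10 (adjusted p = 0.32 and 0.71). The gene TNFSF12-TNFSF13 overlaps both on the same strand, so their reads cannot be told apart with certainty.

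Among chemokine and cytokine genes, 9 of 19 were tested, 5 rose and 1 fell (median 0.70). IL32, a proinflammatory cytokine, was at 1.96, 1.42 and 1.13 CPM without DOX and at 2.99, 4.4 and 4.86 CPM with DOX (log2 fold change 1.42, SE 0.22, adjusted p = 0.0067). LIF, a cytokine of the IL-6 family, went from 3.49 ± 0.17 to 6.55 ± 1.23 CPM (0.91, adjusted p = 0.0078). CSF1, the macrophage growth factor, went from 8.50 ± 1.29 to 15.7 ± 2.86 CPM (0.88, adjusted p = 0.0093). Every treated library lay above every control for these 3 genes. Without DOX-negative replicate 3 their adjusted p was 0.063, 0.057 and 0.078. CX3CL1, which encodes fractalkine, moved the other way, from 4.81 ± 0.14 to 2.70 ± 0.55 CPM (-0.84, SE 0.15, adjusted p = 0.012), and its adjusted p was 0.052 and 0.081 without DOX-negative replicates 2 and 3. IL6 had 0 to 2 counts per library and CCL2 had 0 in all.

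Of 41 other target genes, 33 were tested, 7 rose and 1 fell in edgeR and in limma-voom (median 0.18), while DESeq2 called 12 higher and 1 lower. PLAU, the urokinase plasminogen activator, was at 12.5, 10.6 and 10.7 CPM without DOX and at 26.6, 31.8 and 39.8 CPM with DOX. Each treated library was well above the controls. PLAU rose by 1.54 on the log2 scale (SE 0.14, adjusted p = 0.0008) and was called without each library in turn. C10orf55 overlaps PLAU on the opposite strand. PTGS2, which encodes cyclooxygenase-2, had 7, 10 and 3 counts without DOX and 42, 21 and 38 with DOX (2.07, SE 0.36, adjusted p = 0.011, and 0.078 without DOX-negative replicate 3). GADD45B, a stress response gene, went from 15.9 ± 0.60 to 24.4 ± 2.97 CPM (0.61, adjusted p = 0.0089, and 0.081 without DOX-negative replicate 3). LCN2, the siderophore-binding lipocalin, and ICAM1, an adhesion molecule, had log2 fold changes of 0.62 and 0.59 (adjusted p = 0.026 and 0.029). Their adjusted p was 0.11 and 0.13 if DOX-negative replicate 2 was left out, 0.13 and 0.17 for DOX-negative replicate 3, 0.053 and 0.064 for DOX-positive replicate 2, and 0.075 and 0.071 for DOX-positive replicate 3. SDC4, the most abundant gene of the list beside NFKBIA, had a log2 fold change of 0.054 (adjusted p = 0.72). The gene that fell was PANX1, a membrane channel gene named here after its value was seen (-0.32, adjusted p = 0.048).

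**Figure D4:**
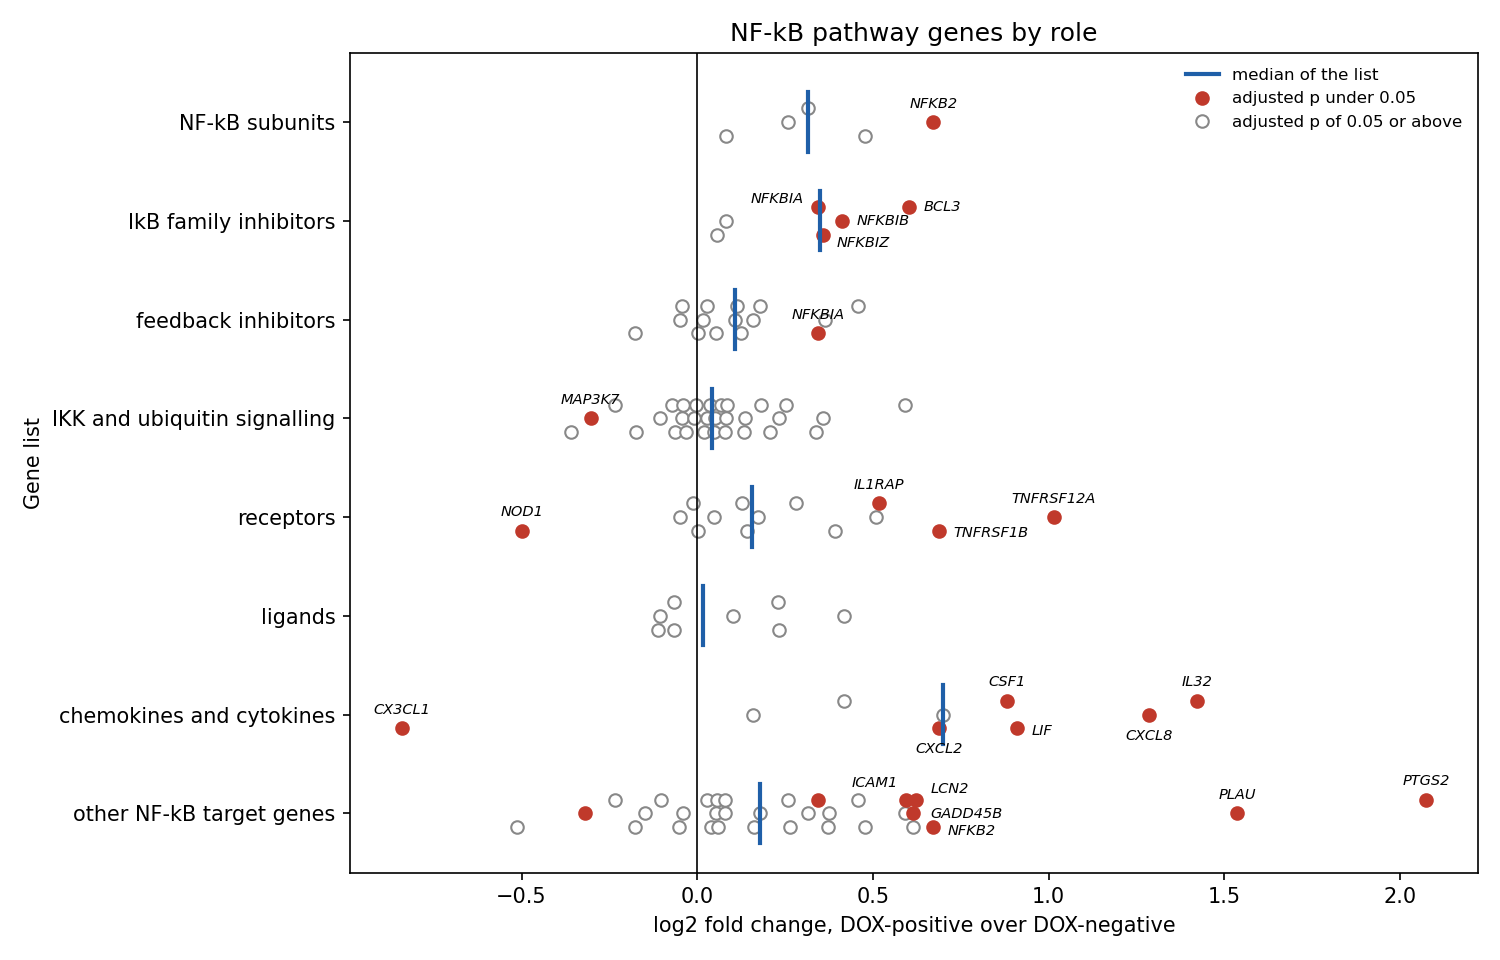
Log2 fold change (x axis, DOX-positive over DOX-negative) of each tested gene in 8 lists of NF-κB pathway genes (y axis), with called genes in red and the list median as a blue bar. The list medians run from 0.017 for ligands to 0.70 for chemokines and cytokines, and a gene may stand in more than 1 list.

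The genes whose level followed NFKBIA most closely over the 6 libraries were NT5M (Pearson r = 0.997), ATG9A (0.997) and SOWAHA (0.996), out of 14587 genes averaging 50 counts or more. This is a description over 6 libraries that share the difference between the groups.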

How the data were processed

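RNA-seq was performed on triplicate cultures, from total RNA made into stranded mRNA libraries per the labels. The authors deposited unnormalized counts for each gene symbol and TPM, which scale counts by gene length and library total. The submitters' processing notes name STAR, DESeq2 and GRCh38 (hg38). Tool versions, the annotation and the strand setting of the counting are not given in the sources used here. Groups and replicate numbers came from the sample titles. Nothing ties a number to a shared culture or day, so p-values measure the spread between these cultures.

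Counts were tested with edgeR 4.0.16 in R 4.3.3 (filterByExpr, TMM factors, robust glmQLFit, glmQLFTest, no covariate) over 17026 genes of 28008, with Benjamini-Hochberg adjustment over all of them and calls at 0.05. Log2 fold changes are DOX-positive over DOX-negative, and CPM use the TMM factors. For a single gene, 3 against 3 libraries cannot give an exact permutation p below 0.1. Alternatives were RLE or no scaling factors, no count filter or at least 50 counts in 3 libraries, DESeq2 1.42.0, limma-voom and limma-trend (limma 3.58.1) on log2(TPM + 1) and log2(TPM + 0.1) (all genes, or a mean TPM of 1 or more), a replicate block and leaving out each library. Removal of GC and length trends was added after seeing the data. A low gene had no TPM fit under the minimum.

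The 10 genes and all lists were chosen with earlier results of these data known. Named genes were the 10, MUC1, per list up to 6 called genes by size of change and the 2 most abundant by TPM, and the 3 genes most like NFKBIA. Coordinates and promoter windows came from RefSeq on GRCh38.p14. Overlapping genes and transcript sequences came from GENCODE. Some marker genes, and list counts that include them, are not reported here.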

Additional observations from a re-analysis of the deposited data

How the results depend on the processing

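The 9 tested NF-κB genes had a log2 fold change above 0 in each alternative that could fit them. The number called was 4 and became 7 without a count filter, 7 after removing GC and length trends, 0 in each of the 3 TPM analyses and 1 to 4 without 1 library; it was 6 in DESeq2, 4 with at least 50 counts in 3 libraries, and 3 with RLE factors, no scaling factors or limma-voom. At an unadjusted p under 0.05, 1 of 5 genes passed in each TPM analysis with a minimum and 6 of 9 without it. Called pathway genes numbered 22, and 3 in each TPM analysis with a minimum, 0 without it (20 at an unadjusted p under 0.05) and 3 to 22 without 1 library. Calls among all genes numbered 829, and 1355 in DESeq2, 2030 after removing GC and length trends, 31 in log2(TPM + 1) and 35 in log2(TPM + 0.1) with a minimum, 11 without it and 58 to 1035 without 1 library. Of these calls 59.8% were higher, against 45.2%, 45.7% and 81.8% in the TPM analyses and 50.9% after removing GC and length trends. The cause was not tested. MUC1 was at -1.22 with an adjusted p of 0.11 in unfiltered log2(TPM + 1) and was called in the other 16 alternatives, at -1.37 to -1.22 without 1 library. Without 1 library TAX1BP1 ran from -0.17 to 0.11, above 0 (0.018 and 0.11) without DOX-negative or DOX-positive replicate 2, and TNFSF12 ran from -0.0050 (DOX-negative replicate 3 left out) to 0.17. With the replicate block the calls were 4 among the NF-κB genes, 22 in the pathway and 998 over all genes, and MUC1 was at -1.32; RELB and IRAK1 gained a call (adjusted p = 0.037 and 0.032) and CXCL2 lost its own (0.069). The numbers were not taken as pairing the samples: same-numbered deviations correlated at -0.56, 0.022 and -0.077. Counts were low for CXCL2, CXCL3 and PTGS2, which limits the precision of their values, and intervals cover the spread between these 3 libraries a group only.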
